A study of Mus musculus with 3 samples.

Results

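The peaks described here lie on mouse chromosome 2 in a window of 150 kb around Wdr5, in build mm9. Members were chosen by position, as every called peak of the deposited Jmjd2a and Jmjd2c lists that falls wholly inside this window. The window itself was chosen with earlier results of these data known. They numbered 15 of 1139 in the Jmjd2a list and 16 of 1113 in the Jmjd2c list, or 31 of 2252 in all. Chromatin came from B220+ B cells of the spleen of C57BL/6 mice that carry the transgene Tg(IghelMD4)4Ccg, which gives B cells a receptor for hen egg lysozyme. All cells, those of the control included, had been isolated on B220 microbeads and then received an antibody to mouse CD40 together with IL-21 and the antigen, HEL. The 3 libraries differed in the antibody, which was anti-Jmjd2a, anti-Jmjd2c or normal rabbit IgG, with 1 library each. The library made with IgG, titled as an input, has no peak list analysed here. The study asked which genes the 2 demethylases regulate under signals that mimic help from follicular T cells. The labels give neither the age of the mice nor the number of animals behind a library, and peak lists hold no marker levels against which the labelled cell type could be checked.

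Jmjd2a and Jmjd2c, also named Kdm4a and Kdm4c, are JmjC-domain enzymes that remove methyl groups from lysine 9 of histone H3, and from lysine 36. Both also carry Tudor domains. Wdr5 is a WD-repeat protein that forms, with Ash2l, Rbbp5 and Dpy30, the shared core of the complexes that methylate lysine 4 of histone H3, a mark of active promoters. The H3 lysine 4 methylases and the Jmjd2 enzymes thus act on different positions of the same histone tail.

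The name of the window is the only link between these peaks and the gene. No annotation or genome of mm9 was used here, so which peak, if any, lies in Wdr5 or at its promoter was not determined, and no peak sequence is given. A RefSeq gene table of another build, GRCm38.p6, was read for gene order alone. In it the nearest protein-coding genes on either side of Wdr5 are Brd3, which encodes a bromodomain reader of acetylated histones, and Rxra, which encodes a retinoid X receptor. The nearest entries of any kind are the pseudogene Gm18548 and the small nuclear RNA gene Gm25541. The peaks are therefore called by position. Peak scores are the authors' own values, on a scale that no header names, and start at 50.01 in both lists. They are used only to rank peaks within a list.

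Nearly all of the peaks formed 1 compact cluster. The 15 Jmjd2a peaks ran from 27350917 to 27358218, a span of 7302 bp. In the Jmjd2c list 15 of the 16 members ran from 27350923 to 27358069, a span of 7147 bp. Both lists thus marked the same stretch, and their first peaks began 6 bp apart. The remaining Jmjd2c peak, from 27333045 to 27333201, was 17721 bp from the next peak of its list. No peak of either list lay in the last 91.8 kb of the window, and none was added when the window was widened by 100 kb on each side. The nearest Jmjd2a peaks outside it were 1980 kb away on one side, with a score of 53.00, and 11777 kb away on the other, with a score of 90.72. For Jmjd2c the nearest were 13801 kb away, at 55.14, and 6431 kb away, at 54.29. The window held 15 of the 39 Jmjd2a peaks of chromosome 2 (38.5%) and 16 of the 45 Jmjd2c peaks (35.6%). These counts follow from the choice of a window where peaks were known to lie and are given as a description.

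**Figure D1:**
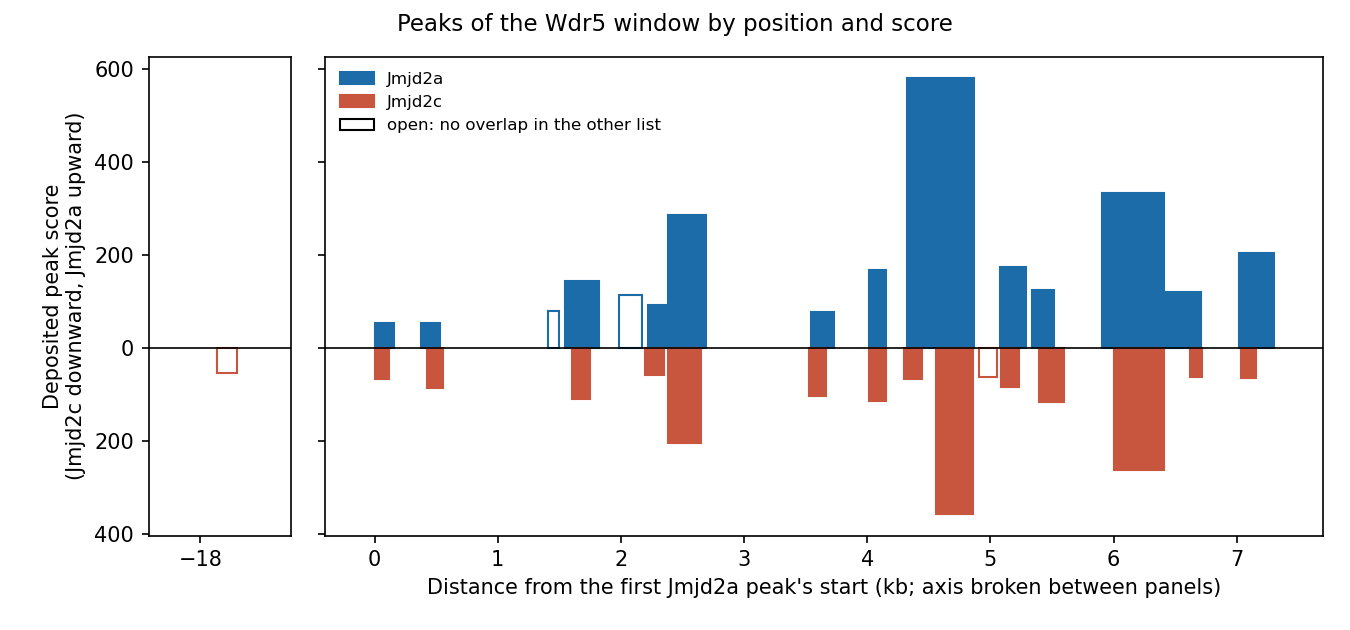
Peaks of the window drawn to scale, with distance from the start of the first Jmjd2a peak in kb on the horizontal axis and the deposited score on the vertical axis, Jmjd2a upward and Jmjd2c downward. Each bar is 1 peak and is as wide as the peak; open bars overlap no peak of the other list. The highest bars of both lists, 579.00 for Jmjd2a and 355.84 for Jmjd2c, share the same place, and the single Jmjd2c peak at the far left scored 52.63.

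The Jmjd2a scores ranged from 52.89 to 579.00. The highest belonged to the peak from 27355237 to 27355785, which scored 579.00 and ranked 8 among the 524 autosomal Jmjd2a peaks. Among all 1139 Jmjd2a peaks, those off the autosomes included, this peak ranked 67. It was also the widest member of that list, at 549 bp. The second, from 27356823 to 27357326, scored 332.68 and ranked 18. The third, from 27353303 to 27353610, scored 286.33 and ranked 20. Below these 3 came the last peak of the row, from 27357932 to 27358218, with a score of 204.82 and rank 34, and then the peak from 27355998 to 27356202, with 173.23 and rank 46. At the other end, the first 2 Jmjd2a peaks, from 27350917 and from 27351296, both scored 52.89, close to the floor of the list, and were both 156 bp wide. The Jmjd2a cluster therefore had its lowest scores at its first edge and its highest in its second part.

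The median Jmjd2a score of the window was 125.2 (95% interval of the median 80.5 to 204.8, n = 15), against 67.5 (64.1 to 70.9, n = 509) over the other autosomal peaks. Of the 15 peaks, 13 were above the median of the other autosomal peaks, 10 were above their upper quartile and 6 ranked in the top 10% of autosomal peaks. The window's median stood at percentile 85.7 of the other autosomal peaks, meaning that 85.7% of them scored lower. Set against the other autosomal peaks that had a neighbour of the same list within 1 kb, 110 peaks with a median score of 81.3, it stood at percentile 70. Intervals treat peaks as independent, which neighbours in a cluster are not, and cover no variation between libraries.

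The Jmjd2c scores had the same leading places with fewer peaks of high rank. The peak from 27355475 to 27355775 led with 355.84 and ranked 11 among 625 autosomal Jmjd2c peaks, and 87 among all 1113. The peak from 27356917 to 27357327 followed with 262.92 and rank 19, and was the widest Jmjd2c member at 411 bp. The peak from 27353303 to 27353569 scored 204.07 and ranked 27. Each of these 3 lay under 1 of the 3 leading Jmjd2a peaks, in the same order of score. After them the scores dropped to 115.86, rank 85, for the peak from 27356309 to 27356510. The fifth, from 27354930 to 27355070, scored 112.66 and ranked 92. The lowest member was the isolated peak from 27333045, at 52.63 and rank 543.

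The median Jmjd2c score of the window was 85.4 (62.6 to 115.9, n = 16), against 63.9 (61.9 to 67.1, n = 609) over the other autosomal peaks. Here 12 of 16 peaks were above the median of the others, 7 were above their upper quartile and 3 were in the top 10% of ranks. The median stood at percentile 73.4, or at 56.4 among the 140 other autosomal Jmjd2c peaks with a neighbour within 1 kb. The difference was smaller among shared peaks, those that overlap the other list. The 14 shared Jmjd2c members had a median of 94.6, against 91.7 over the 201 other shared autosomal peaks, at percentile 54.7 of them. The 13 shared Jmjd2a members had a median of 143.6, against 100.7 over 190 others, at percentile 73.7. Other autosomal peaks without a partner had medians of 59.3 for Jmjd2c and 60.6 for Jmjd2a. Over all Jmjd2c members, the interval of the window's median includes the median of the other autosomal peaks. Scores are not scaled between libraries, so the higher Jmjd2a values do not give an order of the 2 proteins.

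**Figure D2:**
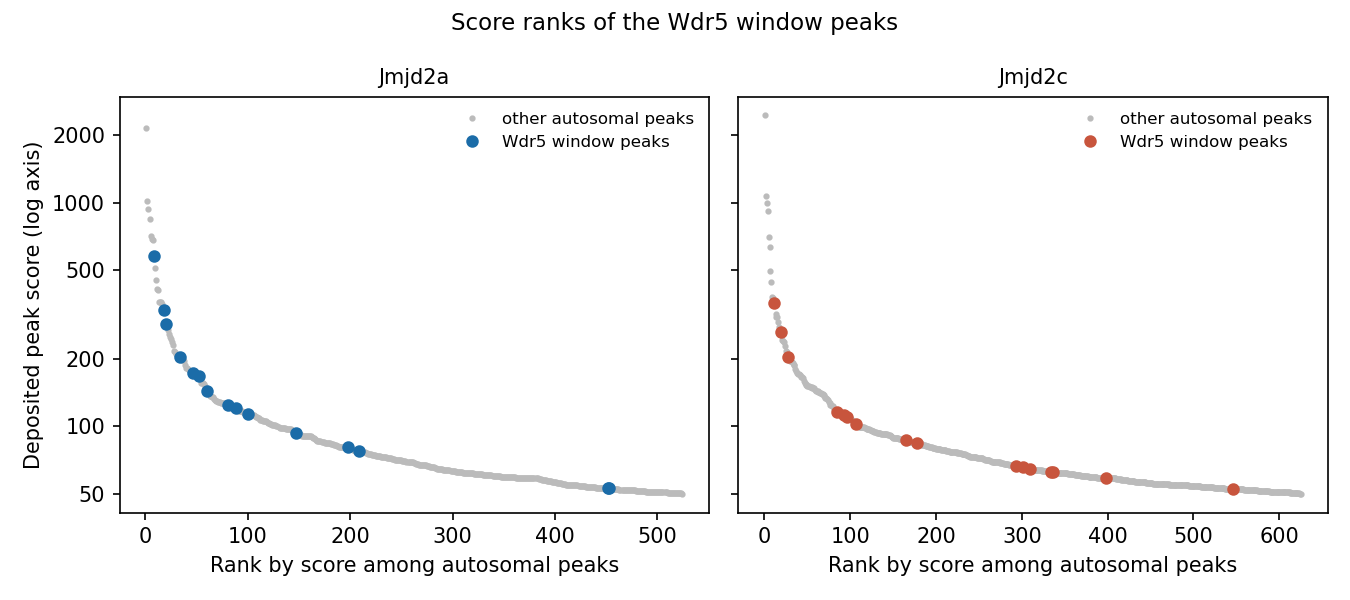
Deposited score on a log axis against rank among autosomal peaks, for Jmjd2a on the left and Jmjd2c on the right. Coloured points are the window's peaks and grey points all other autosomal peaks; 3 members of each list lie on the steep left part, at ranks 8, 18 and 20 for Jmjd2a and 11, 19 and 27 for Jmjd2c.

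Most members were called with both antibodies. In the Jmjd2a list 13 of 15 members had 1 bp or more in common with a Jmjd2c peak (86.7%, 95% Wilson interval 62.1 to 96.3), where 190 of the 509 other autosomal Jmjd2a peaks, or 37.3%, did so. Of the 16 Jmjd2c peaks, 14 were shared (87.5%, 64.0 to 96.5), against 201 of 609 other autosomal Jmjd2c peaks, or 33.0%. The share of the other autosomal peaks moved with crowding. Among other autosomal peaks with a neighbour of the same list within 1 kb, 72 of 110 were shared in the Jmjd2a list (65.5%, 56.2 to 73.7) and 82 of 140 in the Jmjd2c list (58.6%, 50.3 to 66.4). Among those without one, 118 of 399 (29.6%) and 119 of 469 (25.4%) were, and whether crowding has a part in the window's share was not tested. The window's intervals overlap those of the crowded peaks in both lists. All 15 Jmjd2a members and 15 of the 16 Jmjd2c members had such a neighbour. With 1 library per antibody no difference between these shares was tested. Without an IgG peak list, specific binding of both demethylases to the cluster cannot be told apart from enrichment that a control antibody would give as well.

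**Figure D3:**
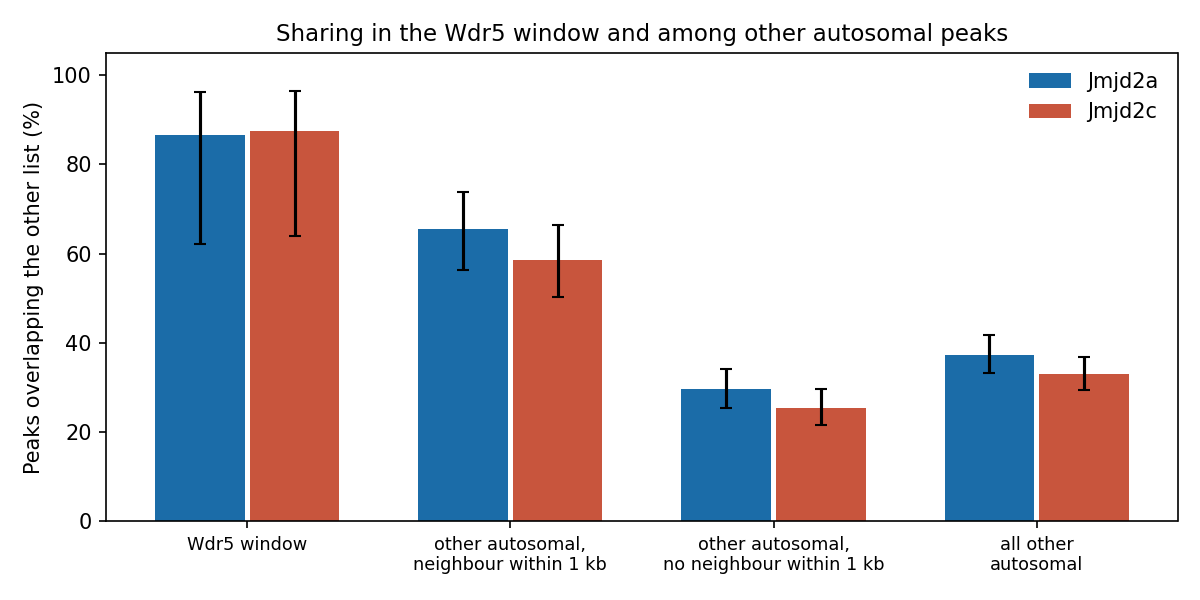
Percent of peaks that share at least 1 bp with the other list, with bars for Jmjd2a and Jmjd2c and error lines for 95% Wilson intervals, in the window and in 3 sets of other autosomal peaks. The window's bars, 86.7% and 87.5%, stand above those of other peaks with a neighbour within 1 kb, 65.5% and 58.6%, with overlapping intervals.

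The 4 members without a partner fell into different situations. The Jmjd2a peak from 27352327 to 27352416 scored 80.49 and lay 100 bp from the nearest Jmjd2c peak; it was the narrowest Jmjd2a member, at 90 bp. The Jmjd2a peak from 27352904 to 27353088 scored 113.14, at percentile 82.1, and missed a Jmjd2c peak by 20 bp. The Jmjd2c peak from 27355823 to 27355973 scored 62.41 and missed a Jmjd2a peak by 24 bp. These 3 thus lay inside the cluster beside peaks of the other list. Only the isolated Jmjd2c peak from 27333045 was far from any peak of the other list, at 17715 bp.

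The shared members formed 14 overlapping pairs, since the leading Jmjd2a peak met 2 Jmjd2c peaks. That 549 bp peak covered 123 bp of the Jmjd2c peak from 27355214 to 27355359 and all 301 bp of the leading Jmjd2c peak. In the other 12 pairs each peak had 1 partner. Peak centres within a pair lay a median of 35.5 bp apart, with a range of 0.5 to 224.5 bp, against 31.3 bp over 208 other autosomal pairs. The Jmjd2c peak was mostly enclosed by the Jmjd2a peak. A median of 99.4% of its length was overlapped, with a range of 62.9% to 100%, against a median of 71.1% of the Jmjd2a peak's length. The closest match was between the Jmjd2a peak from 27354932 to 27355069 and the Jmjd2c peak from 27354930 to 27355070, which differed by 2 bp at the start and 1 bp at the end. The peaks that began at 27353303 had the same first base in both lists. In 5 of the 14 pairs at least 1 edge agreed within 2 bp, a tolerance chosen after the values were seen, and in 18 of the 208 other autosomal pairs (8.65%) it did. How the caller set the edges of a peak is not stated in the labels.

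Within pairs the 2 lists ranked some places alike and others far apart. The pair of the leading peaks stood at percentile 98.6 of other autosomal peaks for Jmjd2a and 98.4 for Jmjd2c. The pair that began at 27353303 stood at 96.7 and 96.1, and the pair of the widest Jmjd2c peak at 96.9 and 97.2. At these 3 places the percentiles differed by less than 1 point. In 6 pairs they differed by more than 30 points. Jmjd2c had the higher percentile in the first pair, at 52.2 with a score of 65.86, where Jmjd2a was at 13.9 with 52.89. The second pair had the widest gap, 60.3 points, with Jmjd2c at 74.2 and a score of 86.66 and Jmjd2a again at 13.9. The first edge of the cluster thus ranked higher for Jmjd2c. At the opposite edge the order turned: in the last pair Jmjd2a, scoring 204.82, was at 94.1 and Jmjd2c, scoring 64.41, at 51.1, and in the pair before it they stood at 84.5 and 47.3. The remaining 2 wide gaps lay inside the cluster, where Jmjd2a was at 73.3 and Jmjd2c at 36.3 in the fourth pair, and the second, smaller partner of the leading Jmjd2a peak was at 53.5. Jmjd2a had the higher percentile in 9 of 14 pairs (64.3%), against 48.1% of the other autosomal pairs. Spearman's rho between the scores was 0.46 over the 14 pairs and 0.43 over the 208 others. These are descriptions across neighbouring places in the same libraries, in which the Jmjd2a peak with 2 partners enters 2 pairs. With each peak kept only in its longest overlap, rho was 0.61 over 13 pairs of the window. That value was not computed for the other autosomal pairs.

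**Figure D4:**
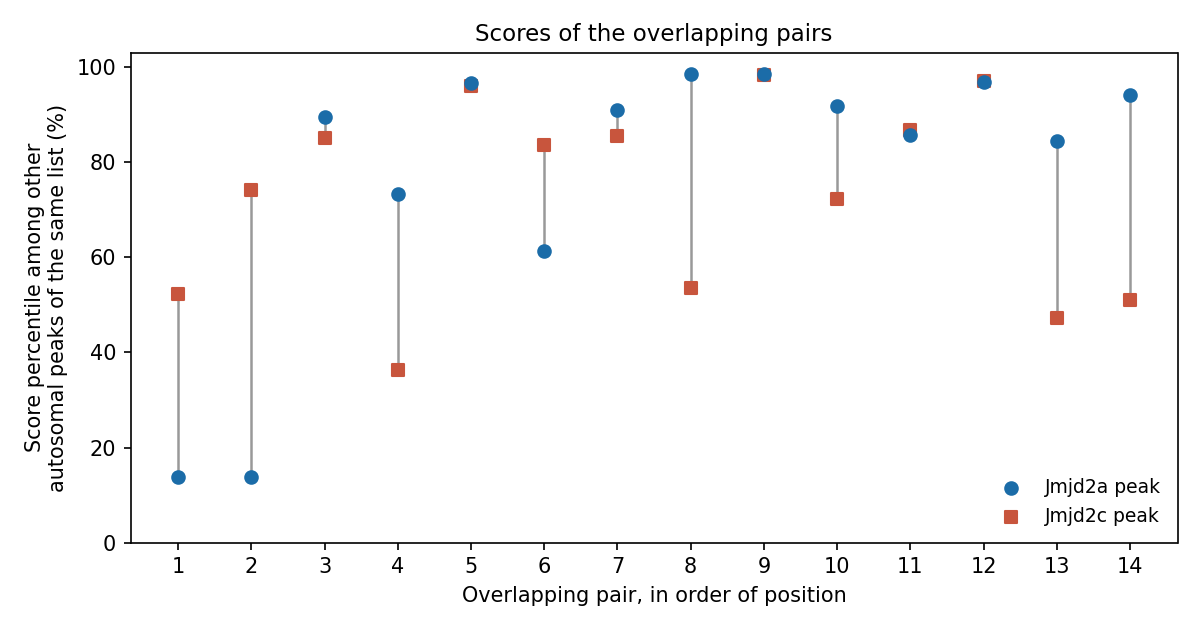
Score percentile among the other autosomal peaks of the same list, in percent, for the 14 overlapping pairs in order of position. Circles are Jmjd2a and squares Jmjd2c, with a line joining each pair; the circle is below the square in the first pair, at 13.9 against 52.2, and above it in the last, at 94.1 against 51.1.

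The window's peaks were not wide for their lists. The median Jmjd2a width was 185 bp (156 to 293), with a range of 90 to 549 bp, against 205 bp (195 to 215) over the other autosomal peaks. The median Jmjd2c width was 148.5 bp (133 to 202), with a range of 97 to 411 bp, against 183 bp (177 to 191). Only 6 of 15 Jmjd2a members and 4 of 16 Jmjd2c members were wider than the median of the other autosomal peaks. In both lists the interval of the window's median overlaps that of the other peaks. Other autosomal peaks with a neighbour within 1 kb had medians of 263.5 bp for Jmjd2a and 226 bp for Jmjd2c, and the window's medians stood at percentiles 21.8 and 12.1 of them. In the pairs the Jmjd2a peak was the wider one in 11 of 14 (78.6%), and in 71.6% of the other autosomal pairs. High scores went with width in the Jmjd2a list, with a rho of 0.73 over the 15 members and 0.39 over the other autosomal peaks. The corresponding values for Jmjd2c were 0.46 over 16 and 0.50. Width and score of a peak come from the same reads.

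The cluster was a row of short peaks with short gaps. Jmjd2a peaks covered 3658 bp, 50.1% of their span. The 15 clustered Jmjd2c peaks covered 2677 bp, 37.5% of theirs. The median gap between neighbours was 189.5 bp for Jmjd2a, with a range of 10 to 875 bp, and 255 bp for Jmjd2c, with a range of 25 to 1043 bp. Only 2 of 14 gaps in each list exceeded 500 bp, and they lay at the same 2 places. One parted the first 2 peaks of the cluster from the rest and the other followed the peaks that began at 27353303. The lists had 2362 covered bases in common, which was 64.6% of the window's Jmjd2a bases and 83.4% of its Jmjd2c bases. The shares over the other autosomal peaks were 40.6% and 38.2%. With peaks closer than 1 kb joined, the 15 Jmjd2a peaks became 1 region and the 16 Jmjd2c peaks became 3, so the count of members depends on how finely the caller split the stretch.

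The window was chosen where peaks were known to lie, so its counts beside those of other autosomal places are given as a description. In both lists the window had up to 15 peaks within 10 kb, and the most elsewhere on the autosomes was 12 for Jmjd2a and 13 for Jmjd2c, both on chromosome 7. Of the 11 autosomal runs with at least 5 peaks of a list and gaps of at most 100 kb, the window's run ranked second by peaks, level with a run on chromosome 5. With both lists and the isolated Jmjd2c peak included, the window's run held 1.23 peaks per kb. Most other runs were denser, with 4.37 on chromosome 18, 4.05 on chromosome 14 and 1.78 on chromosome 7. Only the level run on chromosome 5, at 0.115, and a run on chromosome 4, at 0.608, were sparser. The run with most peaks, on chromosome 7 from 71611351 to 71640639, held 25 Jmjd2a and 27 Jmjd2c peaks, of which 15 and 15 were shared (60% and 55.6%). Its median scores, 64.1 for Jmjd2a and 78.1 for Jmjd2c, were lower than the window's, and its median widths of 311 and 235 bp were greater. The run on chromosome 5 from 14928447 to 15198919 held 30 Jmjd2c peaks and 1 Jmjd2a peak with none shared, spread over 270.5 kb. The next, on chromosome 18 from 7319773 to 7323666, held 7 Jmjd2a and 10 Jmjd2c peaks, all of them shared, with maxima of 846.93 and 631.09. Some other compact runs had shares like the window's 86.7% and 87.5%, and some did not. On chromosome 10 from 7229367 to 7237176, 7 of 7 peaks of either list were shared. On chromosome 14 from 45289678 to 45293631, the shared peaks numbered 6 of 7 for Jmjd2a (85.7%) and 9 of 9 for Jmjd2c. A second run on chromosome 5, from 105354490 to 105357697, had 5 of 5 Jmjd2a and 5 of 6 Jmjd2c peaks (83.3%) shared. These 3 runs were added after their values were seen. The window's share was thus above that of the run on chromosome 7. It was close to or below that of the runs on chromosomes 10, 14 and 18 and of the second run on chromosome 5. Lower Jmjd2a shares were found on chromosome 5 from 80242381, 3 of 5 (60%), and on chromosome 9 from 115059459, 2 of 5 (40%). In both of these runs 3 of 3 Jmjd2c peaks were shared. The runs on chromosomes 1 and 4 each had 1 of 2 Jmjd2a (50%) and 1 of 5 Jmjd2c peaks (20%) shared. Those runs were also added after their values were seen. Median Jmjd2a scores on chromosomes 10, 14 and 18 were 405.2, 230 and 201.8, above the window's 125.2. Their median Jmjd2c scores were 307.1, 92.5 and 99.97, above the window's 85.4. In the second run on chromosome 5 the Jmjd2a median was lower, 90.4, and the Jmjd2c median higher, 95.2. On chromosome 9 both medians were higher, 170 and 152, and on chromosomes 1 and 4 both were lower. These differences between single regions were not tested.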

How the data were processed

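ChIP-seq libraries of stimulated splenic B220+ B cells were used, 1 per antibody. FastQC and, for the build mm9, Bowtie 0.12.7 are named in the submitters' processing notes. One peak list for each of the 2 demethylase libraries was deposited by the authors. Peak names carry the prefix of MACS; its version, settings and control library are not given here by any label. Each deposited line ends with a score that the authors give without naming a scale. Read numbers are absent from the lists, and the depth is therefore unknown.

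Deposited starts were taken to count from 0 and are printed counting from 1. The software was Python 3.11.15 with scipy 1.17.1, pandas 2.3.3 and numpy 2.4.6. Peaks with 1 bp or more in common were shared. A percentile is the share of other autosomal peaks of the same list with a lower value. Intervals are 95% Wilson intervals for shares and exact binomial (order statistic) intervals for medians; they cover counting error only. No test was run, since each antibody has 1 library and the members were chosen by position. The overlap step was tried on 600 simulated peaks and found all 200 planted shared peaks. The simulated peaks lay far apart and each planted partner was the same peak slightly shifted. Close neighbours and near misses like those of the window were therefore not tried.

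Peaks described singly were the 5 highest scores and the widest peak per list, and all members without a partner. Peaks at the edges of the cluster, single pairs, counts within 10 kb, and the comparison with other peaks that have a neighbour within 1 kb were picked after values were seen. The members and lists were chosen with earlier results of these data known. A list of H3 lysine 4 methylase subunits was set aside, since it needs an mm9 annotation.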

Additional observations from a re-analysis of the deposited data

How the results depend on the processing

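Of 43 alternative values for 12 results, 36 stayed within the interval of the reported value and 7 did not. Where there was no interval, a factor of 1.5 was used instead. A change of direction was looked for only in Spearman's rho between pair scores, which kept its sign. With peaks closer than 1 kb merged, the window held 1 Jmjd2a and 3 Jmjd2c peaks, since merging joins neighbours by construction, and the shared percentage of Jmjd2a was 100 (1 of 1). With centres within 1 kb counted as shared it was also 100, for 15 of 15 peaks. The other settings for sharing gave 69.2% to 86.7% for Jmjd2a and 66.7% to 93.8% for Jmjd2c. Each value, like those above, was higher than the share of other autosomal peaks under the same setting, which reached at most 48.2% and 41.9%. With peaks merged, the intervals were 20.7 to 100 for Jmjd2a and 20.8 to 93.9 for Jmjd2c (2 of 3 peaks, 66.7%). Both include the share of the other autosomal peaks, 34.1% and 28.7%. At scores at or above the autosomal median of each list, 9 of 13 Jmjd2a members (69.2%, 42.4 to 87.3) had a partner, against 48.2%, which the interval includes. For Jmjd2c 10 of 12 members (83.3%, 55.2 to 95.3) had a partner, against 41.9%. Against other autosomal peaks with a neighbour within 1 kb, a reference added after seeing the data, the median width stood at percentile 21.8 for Jmjd2a and 12.1 for Jmjd2c, in place of 40.3 and 22.5; those reference peaks had the higher median width. The median spacing of Jmjd2a peaks was 428.5 bp between centres in place of 189.5 bp between edges, since the former includes the peaks. Among all peaks in place of autosomal ones, Jmjd2a had the higher percentile in 11 of 14 pairs. Against all other peaks the window's median score stood lower, at percentile 74.1 for Jmjd2a and 59.25 for Jmjd2c, in place of 85.7 and 73.4. Since the depth is unknown, how near a missing peak came to being called cannot be read from the lists. No paired analysis was possible because there is 1 library per antibody, which also leaves no replicate to omit.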
